A study of Mus musculus with 20 samples.

Results

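The genes described here are the Wnt ligands, the R-spondins, the Frizzled receptors and the secreted inhibitors of the Sfrp and Dkk families, measured in 7 sorted groups of mouse mammary epithelial cells. Members were taken by a rule on the gene symbol, and the rule was set with earlier results of these data known. It took every symbol made of Wnt and a number, with or without a or b. It also took every symbol made of Fzd, Sfrp, Dkk or Rspo and a number. Probe sets naming 1 symbol were used, and where a gene had several (1 member, Wnt4) the one with the highest mean over the 20 arrays was taken. This gave 41 members among 19937 genes: 19 Wnt ligands, 4 R-spondins, 10 Frizzled receptors, 4 Sfrp and 4 Dkk genes.

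The cells came from mice of a mixed FVB/CD-1 background, 4 weeks after tamoxifen. All mice carried K8-creERT2, a tamoxifen-activated Cre recombinase driven by the promoter of keratin 8, a luminal keratin. Mutants also carried a Cre-activated transgene for PIK3CA H1047R, an activated form of the catalytic subunit of PI3 kinase, and GFP marked the cells that expressed it. Sorting took CD45-negative cells. Those with low CD24 and no Sca1 formed the basal gate, and those with high CD24 were split by Sca1 into 2 luminal gates. The GFP-negative control groups were basal, Sca1-negative luminal and Sca1-positive luminal cells, with 3 arrays each. The mutant groups were GFP-positive basal, GFP-negative basal and GFP-positive Sca1-negative luminal cells with 3 arrays each, and GFP-positive Sca1-positive luminal cells with 2 arrays, numbered 1 and 3. Each array held amplified RNA of 2000 cells sorted from the pooled glands of 2 to 3 estrus-synchronized mice, from 3 independent sortings. In every comparison of GFP-positive with GFP-negative cells, expression of the transgene and selection for cells in which the K8-driven Cre had acted cannot be told apart.

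Values are log2 probe set levels, compared only between arrays for the same gene. Array medians ran from 3.66 to 3.80, and the correlation of arrays of 1 group over all probe sets was 0.931 to 0.971. All 10 basal markers (keratins 5, 14 and 17, Trp63 and contractile genes) were higher in control basal cells than in either control luminal group. Of 8 general luminal markers, 7 were lower in basal cells in each of these comparisons. The control luminal gates were less distinct on hormone-sensing markers: 0 of the 5 measured were called between them. Means of that list were 7.52 in Sca1-negative and 8.24 in Sca1-positive cells. Of 7 luminal progenitor markers, 4 were lower in Sca1-positive than in Sca1-negative control cells. The mean of the 6 immune markers measured ran from 3.65 to 4.09 over the arrays. In each group, 4 or 5 of these 6 had a group mean under 4. Ptprc, 1 of them, lay between 3.36 and 3.66 in every group mean. Basal cells did carry luminal keratin signal, with Krt18 at 9.68 in control basal against 11.9 in control Sca1-negative luminal cells. Of the 20 arrays, 3 stood apart from their groups. Values were less spread on 2 arrays (replicate 2 of the Sca1-positive luminal controls and of the GFP-positive basal mutants) than on the 18 others, and replicate 2 of GFP-negative basal cells lay lower on the first principal component (38.8 against 50.3 and 46.8). Without these 3 arrays 29 of the 30 calls of members below held, and the call of Wnt6 was lost.

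Wnt proteins are secreted lipid-modified ligands that bind Frizzled receptors together with the co-receptors Lrp5 and Lrp6. In the canonical branch this stabilizes beta-catenin, which then acts with TCF/LEF factors, while ligands such as Wnt5a are mostly linked to beta-catenin-independent signals. R-spondins bind Lgr4, Lgr5 and Lgr6 and keep Frizzleds at the surface. Sfrp proteins resemble the ligand-binding part of Frizzled and bind Wnts outside the cell, while several Dkk proteins act on the co-receptors. In the mammary gland the pathway is best known for supporting basal stem cell activity and for ductal branching.

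A gene was called at an adjusted p under 0.05 (limma, 1 fit of 7 group means over all 20 arrays, Benjamini-Hochberg over the 19937 genes within each comparison). Rose and fell refer to such calls, and errors of differences are standard errors of that fit. Where the lower group lies near or below the array medians, its level may not be above background, and the fitted difference can understate the true one. The p-values measure the spread between separately sorted pools, gates of 1 genotype may come from the same pools, and 2 or 3 arrays a group limit what can be detected. In sorted pools, fewer cells of a type and less RNA per cell cannot be told apart.

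Of the 41 members, 13 were called in at least 1 of 8 comparisons between groups and 3 interactions, giving 30 calls. They were 5 of 19 ligands (Wnt5a, Wnt5b, Wnt6, Wnt7b and Wnt10a), 5 of 10 receptors (Fzd1, Fzd2, Fzd3, Fzd6 and Fzd7), 2 of 4 Sfrp genes (Sfrp1 and Sfrp2), 1 of 4 Dkk genes (Dkk3) and 0 of 4 R-spondins. The share of all genes called in at least 1 of these comparisons and interactions was not computed. In each of them alone the share ran from 0.140% to 12.3%, and the 13 of 41 is not comparable with these. The map of group means shows Fzd7, Fzd3, Sfrp1 and Dkk3 as genes of the basal gate and Wnt5b as a gene of the Sca1-negative luminal gate.

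**Figure D1:**
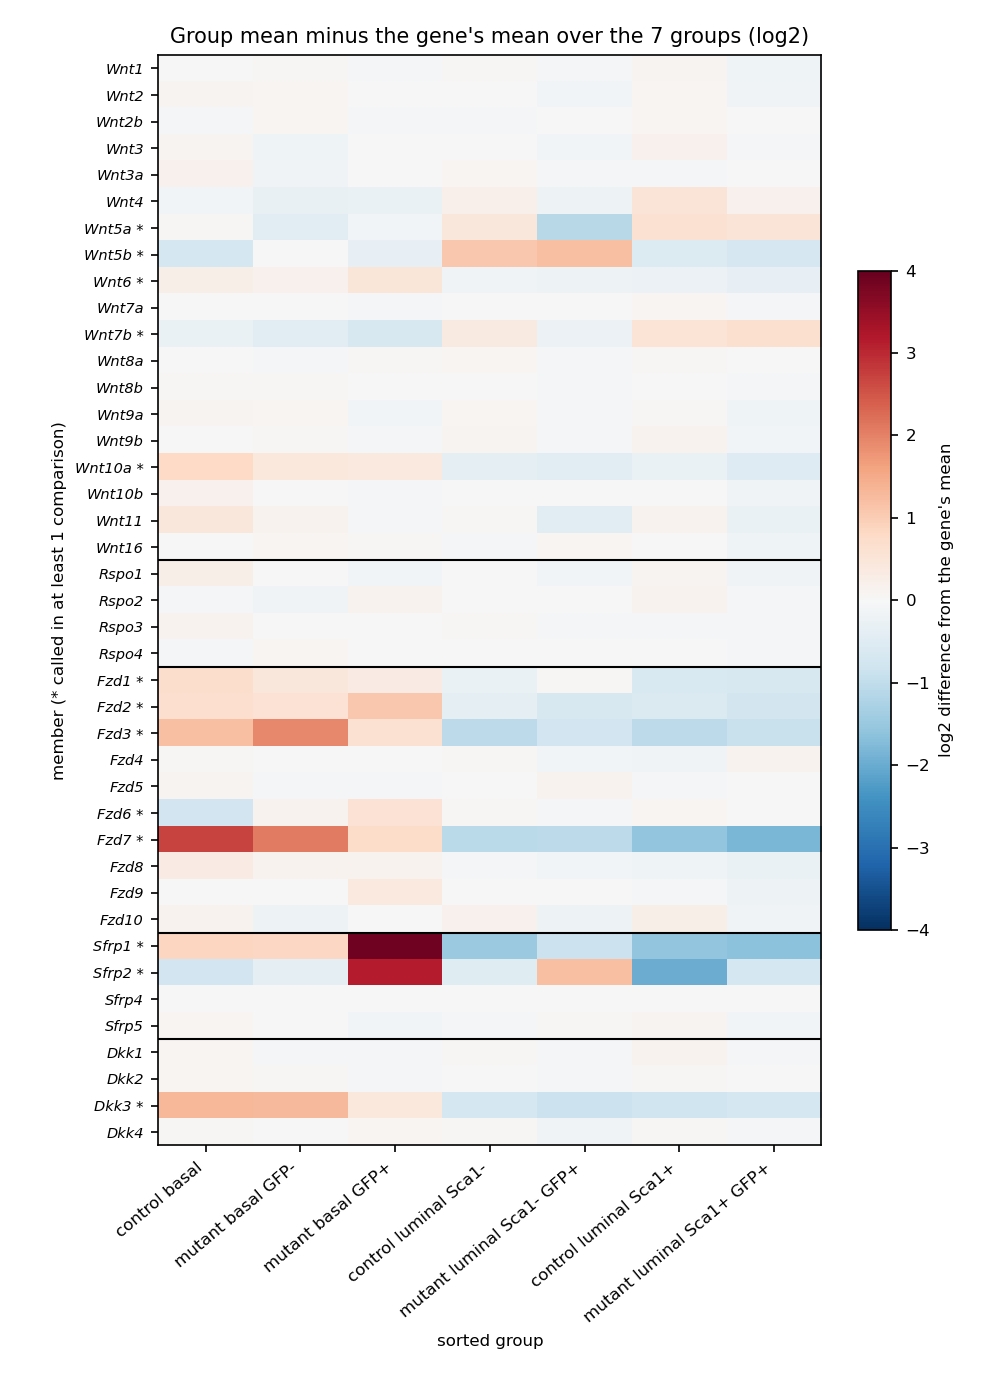
Heat map of the 41 members (rows, by family) in the 7 sorted groups (columns). Colour is the group mean minus that gene's mean over the 7 groups, in log2 units, and an asterisk marks the 13 members called in at least 1 comparison. Sfrp1 and Sfrp2 are darkest in GFP-positive mutant basal cells (group means 9.47 and 9.52), and most rows of Wnt ligands and R-spondins are pale.

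The 28 other members were called nowhere. Among them were 14 ligands (Wnt1, Wnt2, Wnt2b, Wnt3, Wnt3a, Wnt4, Wnt7a, Wnt8a, Wnt8b, Wnt9a, Wnt9b, Wnt10b, Wnt11 and Wnt16) with group means from 3.07 to 5.76. The R-spondins Rspo1 to Rspo4 had group means from 3.23 to 4.29, the receptors Fzd4, Fzd5, Fzd8, Fzd9 and Fzd10 from 3.10 to 5.20, Sfrp4 and Sfrp5 from 3.01 to 3.95, and Dkk1, Dkk2 and Dkk4 from 3.30 to 3.93. For 24 of the 28 the highest and lowest group means lay less than 0.5 apart. The exceptions were Wnt4, a progesterone-induced ligand of side branching, with group means from 4.93 to 5.76, Wnt11 from 4.16 to 5.02, Fzd8 from 3.53 to 4.12 and Fzd9 from 3.93 to 4.53. Wnt4 was 0.65 ± 0.25 lower on average in control basal than in Sca1-positive luminal cells and missed the threshold (adjusted p = 0.115, limma). Above the array's own median in at least 2 arrays were 27 of the 41 members. The 14 below had group means of at most 3.70, so a small change in them was not detectable.

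To show regulatory sequence of members that the results turn on, the 250 bases before the annotated start are given for Sfrp2 and Fzd7, which moved in opposite directions in GFP-positive basal cells, and for 1 of 3 annotated starts of Wnt5b. They come from RefSeq (GRCm38.p6), which gave such windows for 27 members (30 windows) and for 5 of the 13 called ones. Sfrp2 lies at chr3:83766071-83766320 on the plus strand, Fzd7 at chr1:59481897-59482146 on the plus strand and Wnt5b at chr6:119449387-119449636 on the minus strand. Each is written 5′ to 3′, with capitals for matches to the TCF/LEF motif ATCAAAG, the FOXO motif GTAAACA and the GC box GGGCGG on either strand. Overlapping matches run together.
Sfrp2: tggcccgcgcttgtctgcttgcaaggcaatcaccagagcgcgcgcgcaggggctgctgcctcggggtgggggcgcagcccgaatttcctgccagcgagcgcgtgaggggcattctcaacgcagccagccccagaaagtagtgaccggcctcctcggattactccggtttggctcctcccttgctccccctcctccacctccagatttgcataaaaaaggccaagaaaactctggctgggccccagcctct
Fzd7: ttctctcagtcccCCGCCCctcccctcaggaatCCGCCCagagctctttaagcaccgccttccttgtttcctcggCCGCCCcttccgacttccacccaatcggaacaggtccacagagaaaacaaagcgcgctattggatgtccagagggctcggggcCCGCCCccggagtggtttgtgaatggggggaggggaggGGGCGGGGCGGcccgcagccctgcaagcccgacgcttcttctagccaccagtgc
Wnt5b: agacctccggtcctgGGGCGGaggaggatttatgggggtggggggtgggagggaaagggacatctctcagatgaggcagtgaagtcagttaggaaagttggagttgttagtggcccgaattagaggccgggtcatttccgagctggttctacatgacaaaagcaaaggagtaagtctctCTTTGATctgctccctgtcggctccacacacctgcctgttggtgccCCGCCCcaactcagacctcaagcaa

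The Fzd7 window held 6 GC boxes, the Wnt5b window 1 TCF/LEF and 2 GC box matches, and the Sfrp2 window none of the 3 motifs. Of all 32851 windows of this length, 3.21% held the TCF/LEF motif, 3.17% the FOXO motif and 32.7% a GC box. Among the 30 member windows the counts were 2 (Wnt5b and Wnt11), 0 and 21. CpG pairs numbered 16 in the Sfrp2 window, 17 in the Fzd7 window and 7 in the Wnt5b window shown. Their median was 22 over member windows and 6 over all windows. The other Wnt5b windows, which are not shown, held 35 and 4 CpG pairs and 0 TCF/LEF matches each. A match describes the letters of the window and is no evidence of a bound site.

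The first question was how the module differs between the lineages of control glands. Control basal cells had more message for the receptors Fzd7, Fzd3, Fzd1 and Fzd2, the Sfrp and Dkk family genes Sfrp1 and Dkk3 and the ligand Wnt10a than either luminal group. Against Sca1-negative luminal cells 7 members were higher, where 4.67% of all genes were, and 1 was lower, where 5.22% of all genes were. In both directions that is 19.5% of members beside 9.89% of genes. Against Sca1-positive luminal cells 8 members were higher, where 5.94% of genes were, and 1 was lower, where 6.32% were, together 22% of members beside 12.3% of genes. These comparisons share the control basal arrays. The median difference over members was 0.04 and 0.03, beside 0.01 and -0.01 over all genes.

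Among the ligands, Wnt10a, a canonical ligand, read 5.49, 5.84 and 5.31 in control basal arrays. In control luminal arrays it read 4.37, 4.45 and 4.31 (Sca1 negative) and 4.27, 4.57 and 4.65 (Sca1 positive). Every basal array lay above every luminal one. The difference was 1.17 ± 0.18 against Sca1-negative cells (2.26-fold, adjusted p = 0.000327, limma) and 1.05 ± 0.18 against Sca1-positive cells (adjusted p = 0.000698, limma).

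Wnt5b, a ligand mostly linked to beta-catenin-independent signals, had another order. It read 6.62, 6.99 and 6.40 in control Sca1-negative luminal arrays, 5.18, 4.99 and 4.91 in Sca1-positive luminal arrays, and 4.80, 5.24 and 4.62 in basal arrays. The Sca1-negative arrays stood above all the others, while the Sca1-positive and basal arrays overlapped. Wnt5b was 1.64 ± 0.27 lower in Sca1-positive than in Sca1-negative luminal cells (3.12-fold, adjusted p = 0.00829, limma), the only member called between the luminal groups, where 0.762% of genes were called. It was also 1.78 ± 0.27 lower in basal than in Sca1-negative cells (adjusted p = 0.000329, limma). Of the 7 luminal progenitor markers, 4 (Kit, Aldh1a3, Cd14 and Lcn2) were likewise lower in Sca1-positive than in Sca1-negative luminal cells. The mean of that list ran from 6.61 to 7.05 in Sca1-positive arrays and from 8.23 to 8.67 in Sca1-negative arrays, and its part in the Wnt5b difference was not tested.

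Wnt7b, a canonical ligand of epithelia, read 4.75, 4.63 and 4.10 in control basal arrays. In luminal arrays it read 5.67, 5.02 and 5.18 (Sca1 positive) and 5.38, 4.70 and 5.25 (Sca1 negative). Basal arrays lay below all Sca1-positive ones and overlapped with Sca1-negative ones only at 4.70 and 4.75. The difference of -0.79 ± 0.20 from Sca1-positive cells was called (adjusted p = 0.0145, limma), but not without control basal replicate 3 (-0.60, adjusted p = 0.0768, limma), without Sca1-positive replicate 1 (-0.60, adjusted p = 0.0803, limma) or with only these groups fitted (adjusted p = 0.111, limma). The -0.62 from Sca1-negative cells had an adjusted p of 0.0674 (limma).

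Wnt6 was the member with the smallest called difference. It read 4.79, 4.43 and 4.58 in control basal, 4.24, 3.95 and 4.23 in Sca1-positive and 4.31, 4.14 and 4.30 in Sca1-negative luminal arrays. The basal arrays were higher without overlap. The 0.46 ± 0.13 between basal and Sca1-positive cells was called (adjusted p = 0.0318, limma) and lost under 8 of 17 other settings. These include the fits without control basal replicate 1 (0.36, adjusted p = 0.138, limma), without control basal replicate 3 (0.47, adjusted p = 0.0681, limma) and without Sca1-positive replicate 2 (0.36, adjusted p = 0.136, limma).

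Among the receptors, Fzd7, a Frizzled well known in basal mammary cells, had the largest difference of any member between control lineages. It read 10.07, 9.23 and 10.03 in control basal arrays, against 6.22, 5.89 and 5.96 in Sca1-negative and 5.63, 5.12 and 5.81 in Sca1-positive luminal arrays. The lowest basal array stood more than 3 log2 units above the highest luminal one. Basal cells were 3.76 ± 0.28 above Sca1-negative cells (13.5-fold, adjusted p = 1.81e-07, limma) and 4.26 ± 0.28 above Sca1-positive cells (19.1-fold, adjusted p = 2.73e-08, limma).

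Fzd3, a receptor known from planar cell polarity, read 6.41, 5.90 and 5.93 in control basal arrays. Every control luminal array lay far lower, with 3.80, 3.89 and 3.85 in Sca1-negative and 3.75, 4.10 and 3.66 in Sca1-positive cells, near the array medians. The differences were 2.23 ± 0.29 (adjusted p = 6.53e-05, limma) and 2.25 ± 0.29 (adjusted p = 4.85e-05, limma).

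Fzd1 and Fzd2, related receptors of canonical and other Wnts, were also higher in basal cells, by less. Fzd1 read 5.84, 6.29 and 5.62 in control basal, 5.17, 4.70 and 4.95 in Sca1-negative and 4.60, 4.41 and 4.82 in Sca1-positive arrays. Its differences were 0.98 ± 0.21 (adjusted p = 0.00607, limma) and 1.31 ± 0.21 (adjusted p = 0.000466, limma). Fzd2 read 5.19, 4.67 and 4.90 in control basal, 3.86, 3.82 and 3.89 in Sca1-negative and 3.51, 3.70 and 3.79 in Sca1-positive arrays. For both genes no basal array overlapped with a luminal one. The Fzd2 differences were 1.07 ± 0.25 (adjusted p = 0.0112, limma) and 1.25 ± 0.25 (adjusted p = 0.00292, limma), and the first missed the threshold without control basal replicate 1 (0.93, adjusted p = 0.0528, limma).

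The Sfrp and Dkk family genes Sfrp1 and Dkk3 marked the basal gate too. Sfrp1 read 6.36, 6.46 and 6.50 in control basal arrays, against 4.06, 3.87 and 4.35 in Sca1-negative and 3.97, 3.96 and 4.07 in Sca1-positive luminal arrays. Dkk3, a divergent member of the Dickkopf family, read 5.87, 6.56 and 5.81 in control basal, 4.07, 4.03 and 4.09 in Sca1-negative and 4.01, 3.80 and 4.13 in Sca1-positive arrays. Both genes separated the gates without overlap and varied little within each luminal group. Sfrp1 was 2.35 ± 0.21 (adjusted p = 1.76e-06, limma) and 2.44 ± 0.21 (adjusted p = 7.77e-07, limma) higher in basal cells, and Dkk3 2.02 ± 0.31 (adjusted p = 0.000305, limma) and 2.10 ± 0.31 (adjusted p = 0.000157, limma).

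Sfrp2, a close relative of Sfrp1, varied widely within control groups and was called in none of the lineage comparisons. It read 6.84, 5.57 and 4.44 in control basal, 6.11, 6.22 and 5.32 in Sca1-negative and 4.28, 4.79 and 4.11 in Sca1-positive luminal arrays. Basal arrays spanned most of the range of both luminal groups. The 1.49 by which Sca1-positive cells lay below Sca1-negative cells had an adjusted p of 0.501 (limma).

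**Figure D2:**
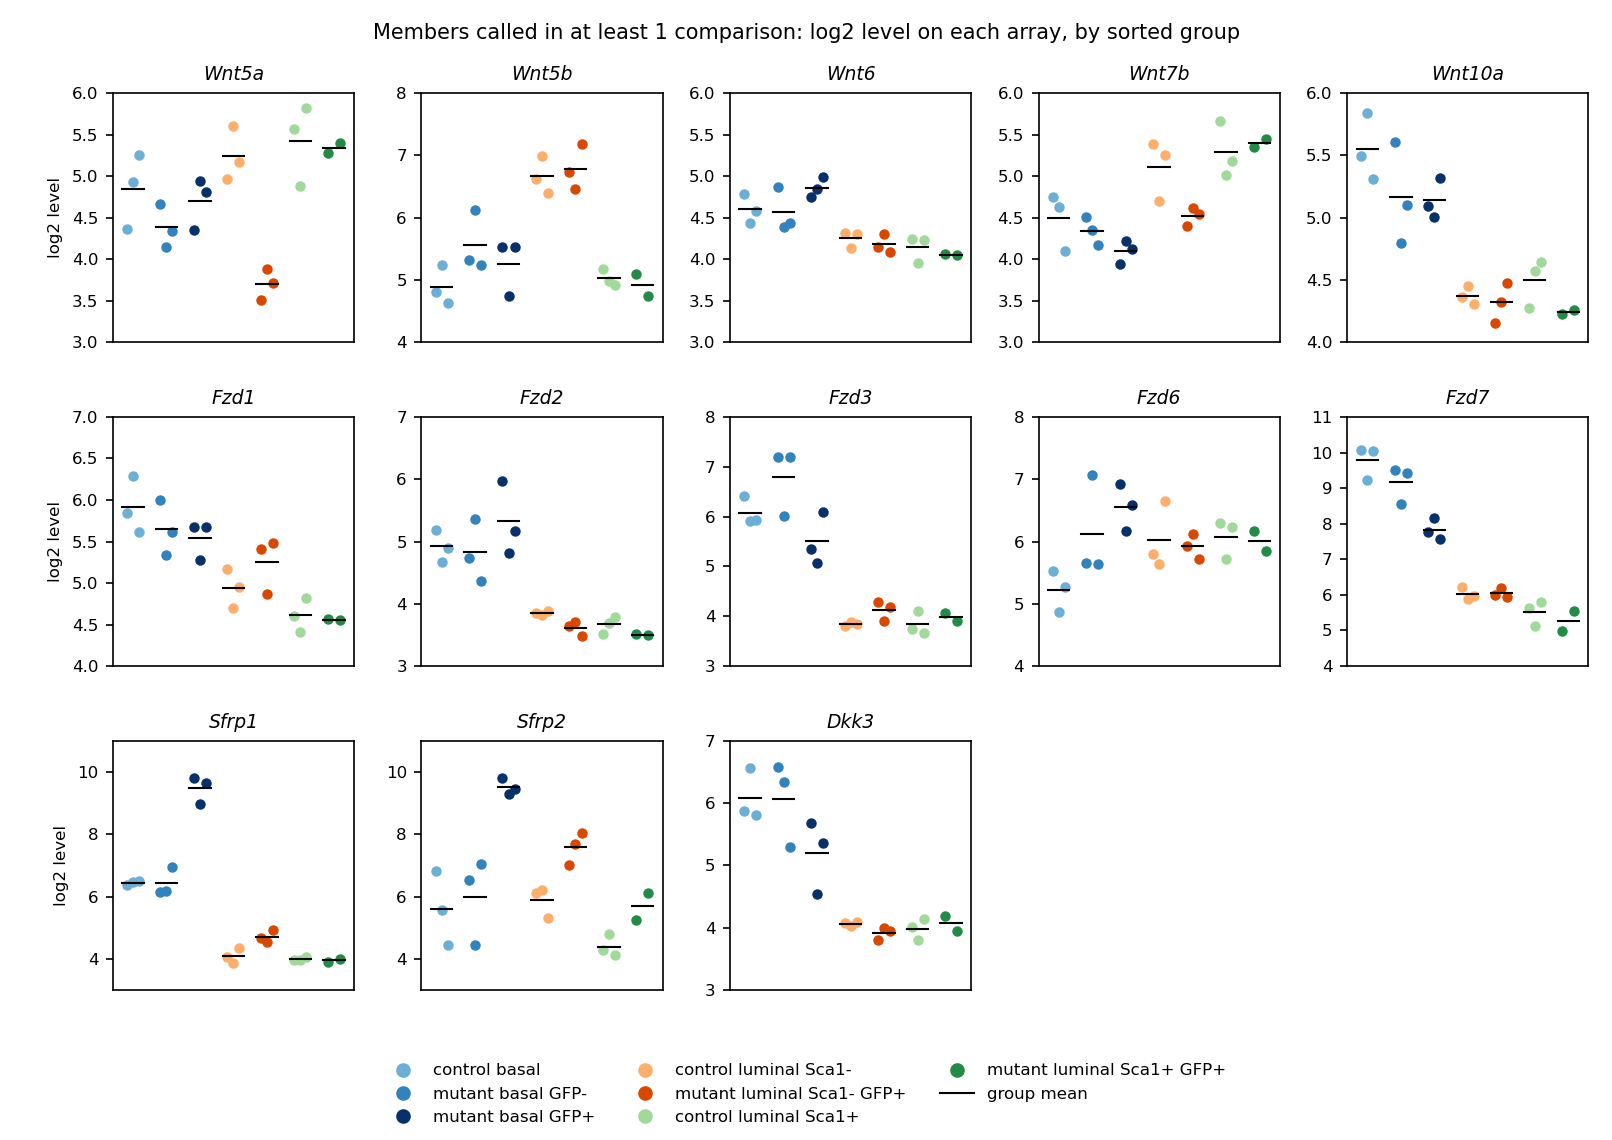
Log2 level of the 13 called members on each of the 20 arrays (points), with the group mean as a bar, in 1 panel per gene with its own axis range. Fzd7 separates all basal from all luminal arrays, Sfrp1 and Sfrp2 are highest on the 3 GFP-positive basal arrays (8.98 to 9.79 and 9.29 to 9.81), and Wnt5a is lowest on the 3 mutant Sca1-negative luminal arrays (3.51 to 3.88).

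The next question was what differed in basal cells that expressed mutant PIK3CA. In GFP-positive basal cells Sfrp2 was 15.0-fold and Sfrp1 8.17-fold higher than in control basal cells, Fzd6 was 2.54-fold higher and Fzd7 was 3.86-fold lower. Thus 3 members rose, where 2.32% of all genes did, and 1 fell, where 1.91% did, together 9.76% of members beside 4.23% of genes. Against GFP-negative basal cells of the same mutants, 2 members rose (Sfrp1 and Sfrp2), where 2.05% of genes did, and 2 fell (Fzd7 and Fzd3), where 1.2% did, together 9.76% beside 3.25%. No ligand and no R-spondin was called in either comparison. These comparisons share the GFP-positive arrays. Median differences over members were -0.12 and -0.03, beside -0.03 and -0.01 over all genes.

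Sfrp1 read 9.79, 8.98 and 9.64 in GFP-positive basal arrays (mean 9.47 ± 0.43, SD, n = 3). In GFP-negative basal arrays it read 6.13, 6.19 and 6.94, beside the 6.36 to 6.50 of control basal arrays. Every GFP-positive array lay at least 2 log2 units above every other basal array, and the GFP-negative and control arrays overlapped. The difference was 3.03 ± 0.21 from control (adjusted p = 3.72e-07, limma) and 3.05 ± 0.21 from GFP-negative cells (adjusted p = 3.84e-07, limma). Both calls held under all 17 other settings of each, including the fit without the 3 arrays that stood apart (3.28 and 3.18).

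Sfrp2 read 9.81, 9.29 and 9.45 in GFP-positive basal arrays (mean 9.52 ± 0.27, SD, n = 3). GFP-negative basal arrays read 6.52, 4.44 and 7.03, a spread as wide as the 4.44 to 6.84 of control basal arrays. The GFP-positive arrays stood together above all of them. The difference was 3.90 ± 0.61 from control (adjusted p = 0.00108, limma), and it ran from 3.32 without control replicate 3 to 4.51 without control replicate 1, called in each case. From GFP-negative cells it was 3.52 ± 0.61 (adjusted p = 0.0031, limma). That second difference was 2.74 without GFP-negative replicate 2 (adjusted p = 0.00855, limma) and 2.86 without all 3 arrays that stood apart (adjusted p = 0.0247, limma), and with only these groups fitted it was not called (adjusted p = 0.108, limma).

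Some markers of other cell types also differed between GFP-positive and control basal cells. Of 8 general luminal markers 3 rose (Krt18 to 10.7 from 9.68, Krt19 to 8.58 from 7.10 and Cldn7 to 7.57 from 6.12), and the mean of that list ran from 7.93 to 8.95, beside 7.34 to 8.22 in control basal arrays. Of 7 luminal progenitor markers 3 rose (Elf5, Cd14 and Ehf), with list means from 6.06 to 6.78 beside 5.10 to 5.36. Of 9 fibroblast markers 2 rose (Dcn to 10.6 from 7.43 and Col1a2 to 5.16 from 4.28) and Fn1 fell, with list means from 4.44 to 4.61 beside 4.19 to 4.41 and a median difference over the list of -0.11. Dcn was also at 10.5 and 11.2 in the control Sca1-negative and Sca1-positive luminal groups, well above its control basal level. Fbln1, at 4.25 against 5.23, was not called (adjusted p = 0.104, limma). Among the other markers of this list, Col3a1 (3.78 against 3.84), Pdgfra (3.41 against 3.53), Lum (2.87 against 3.04) and Dpt (2.87 against 2.98) lay near or below the array medians in both groups. Col1a1 was at 4.46 against 4.47. Basal markers stayed high in GFP-positive cells, with list means from 9.09 to 9.55 beside 9.56 to 9.65, although Myh11 and Oxtr fell. Of the other lists, Cspg4 among 6 pericyte markers rose, and Cdh5 among 6 endothelial and S100b among 2 Schwann markers fell. Against GFP-negative basal cells, Krt18, Cldn7, Elf5, Dcn and Col1a2 rose as well, and Myh11 and Fn1 fell.

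The Sfrp levels of GFP-positive basal cells were above those of every luminal array. Sfrp1 was at most 4.92 on any luminal array, and the Sfrp2 maximum there was 8.04, in mutant Sca1-negative cells. The part of the luminal, progenitor and fibroblast markers above, Dcn and Col1a2 among them, in the Sfrp differences was not tested.

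Fzd7 read 7.76, 8.17 and 7.57 in GFP-positive basal arrays, below the 9.23 to 10.07 of control basal arrays without overlap. GFP-negative basal arrays read 9.51, 8.55 and 9.43. Replicates 1 and 3 lay inside the control range, and replicate 2, an array that stood apart, lay between the control and GFP-positive arrays. GFP-positive basal cells thus kept more Fzd7 than any luminal array, the highest of which was at 6.22. Fzd7 fell by 1.95 ± 0.28 against control (adjusted p = 0.000513, limma), called under all 17 other settings. Against GFP-negative cells it fell by 1.34 ± 0.28 (adjusted p = 0.0132, limma). That call was lost without GFP-negative replicate 1 (-1.16, adjusted p = 0.0634, limma), without GFP-negative replicate 3 (-1.20, adjusted p = 0.0536, limma), without GFP-positive replicate 3 (-1.20, adjusted p = 0.0616, limma) and with only these groups fitted (adjusted p = 0.166, limma).

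Fzd6, a receptor linked to planar cell polarity and inhibition of canonical signals, went the other way. It read 6.92, 6.18 and 6.58 in GFP-positive, 5.65, 7.06 and 5.64 in GFP-negative and 5.52, 4.87 and 5.27 in control basal arrays. All mutant basal arrays were above the control ones, and the highest value of the 9 came from GFP-negative replicate 2, an array that stood apart. Fzd6 was 1.34 ± 0.35 higher in GFP-positive than in control cells (adjusted p = 0.0406, limma). The call was lost under 8 of 17 other settings, with adjusted p from 0.0512 to 0.152 (limma). Among these were the fits without any 1 of control basal replicates 1, 2 and 3 (1.49, 1.17 and 1.37) or of GFP-positive replicates 1 and 3 (1.16 and 1.33).

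Fzd3 read 5.35, 5.06 and 6.09 in GFP-positive and 7.19, 6.01 and 7.19 in GFP-negative basal arrays. Replicate 3 of the GFP-positive and replicate 2 of the GFP-negative cells overlapped, and control arrays (5.90 to 6.41) lay inside the combined range. Fzd3 fell by 1.30 ± 0.29 between GFP-negative and GFP-positive cells (adjusted p = 0.0208, limma). Leaving out GFP-negative replicate 1 (-1.10, adjusted p = 0.0901, limma) or 3 (-1.10, adjusted p = 0.0822, limma), or GFP-positive replicate 1 (-1.22, adjusted p = 0.0762, limma) or 2 (-1.08, adjusted p = 0.0918, limma), ended the call. So did fitting only these groups (adjusted p = 0.334, limma).

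The remaining basal members missed the threshold in GFP-positive cells. Dkk3 read 5.69, 4.54 and 5.36 there and 6.58, 6.34 and 5.30 in GFP-negative cells, a difference of -0.89 from control (adjusted p = 0.135, limma) and of -0.88 from GFP-negative cells (adjusted p = 0.168, limma). Wnt10a read 5.09, 5.01 and 5.32, beside 5.61, 4.80 and 5.10 in GFP-negative cells, a difference of -0.41 from control (adjusted p = 0.268, limma). Both genes remained above every control luminal array in GFP-positive basal cells. Fzd1 read 5.67, 5.28 and 5.67 in GFP-positive and 6.0, 5.34 and 5.62 in GFP-negative arrays. Fzd2 read 5.98, 4.82 and 5.17 in GFP-positive and 4.74, 5.36 and 4.37 in GFP-negative arrays. These receptor values overlapped between the 3 basal groups.

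Levels of the other called ligands in mutant basal cells likewise overlapped with control basal cells. Wnt6 read 4.75, 4.84 and 4.99 in GFP-positive and 4.87, 4.38 and 4.44 in GFP-negative arrays. Wnt7b read 3.94, 4.21 and 4.12 in GFP-positive and 4.51, 4.35 and 4.16 in GFP-negative arrays. The exception was Wnt5b in GFP-negative cells, at 5.32, 6.12 and 5.25, just above the control maximum of 5.24 and not called (0.68, adjusted p = 0.427, limma). In GFP-positive cells Wnt5b read 5.52, 4.74 and 5.53. Wnt5a read 4.35, 4.94 and 4.81 in GFP-positive, 4.67, 4.15 and 4.34 in GFP-negative and 4.36, 4.93 and 5.25 in control basal arrays.

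GFP-negative basal cells of the mutants had 0 members called against control basal cells, where 0.161% of genes were called. At an unadjusted p under 0.05 there were 6 members and 1932 genes (limma), and the smallest adjusted p of a member was 0.206 (limma). The median difference was -0.04 over members and -0.02 over all genes. Fzd6 (0.90, adjusted p = 0.404, limma), Fzd3 (0.71, adjusted p = 0.429, limma) and Fzd7 (-0.61, adjusted p = 0.498, limma) had some of the larger differences. This comparison shares its control arrays with that of GFP-positive cells.

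**Figure D3:**
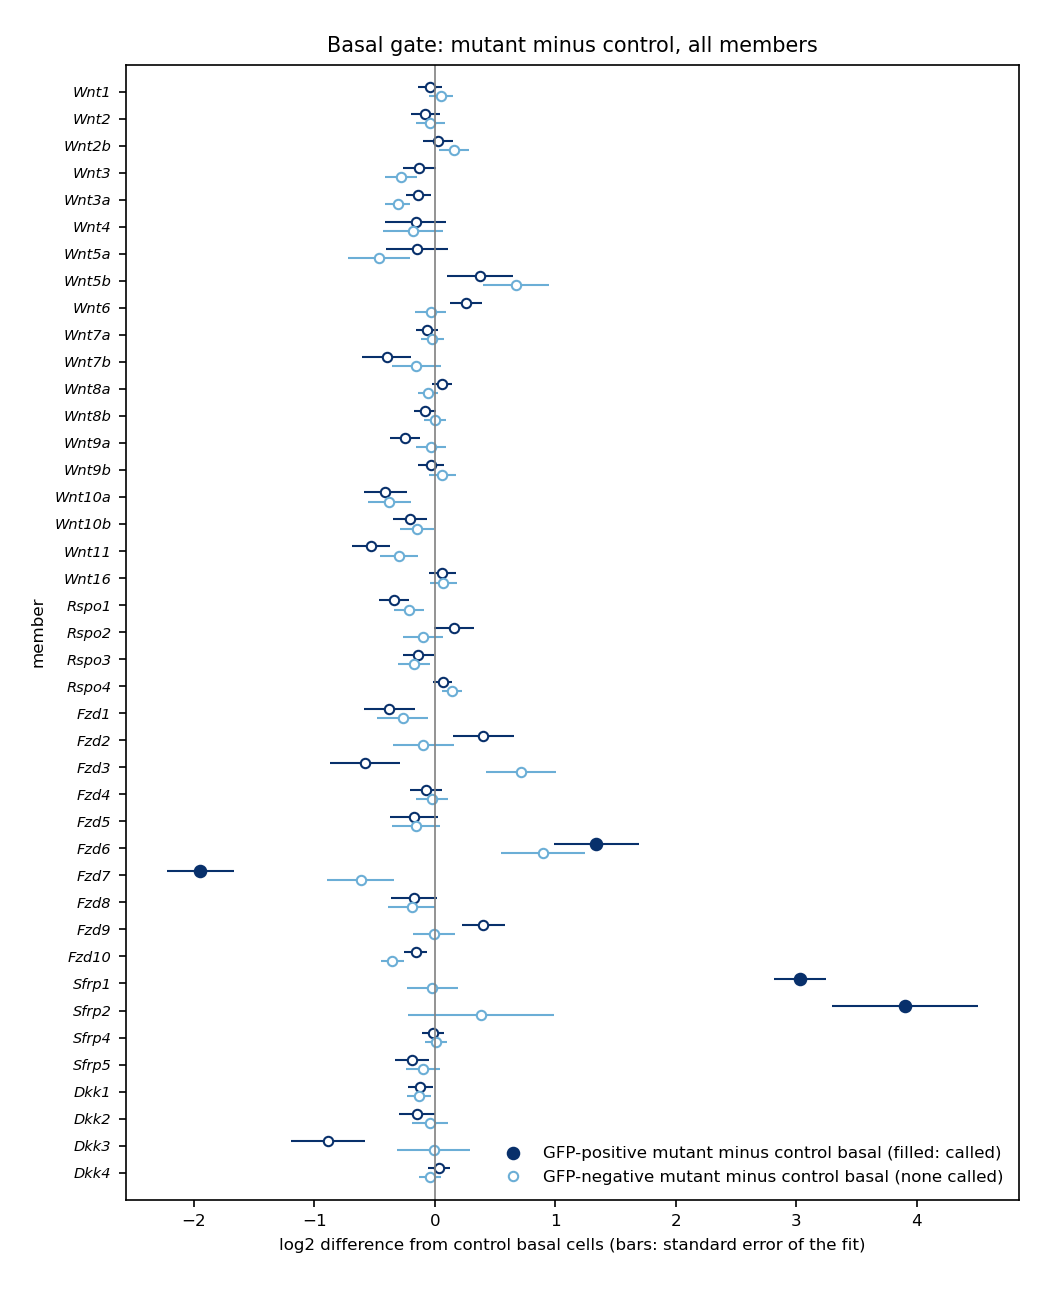
Log2 difference of each of the 41 members from control basal cells (points), for GFP-positive (dark) and GFP-negative (light) mutant basal cells, with the standard error of the fit as bars. Filled points are called. In GFP-positive cells Sfrp2 (3.90), Sfrp1 (3.03) and Fzd6 (1.34) lie to the right and Fzd7 (-1.95) to the left, and no GFP-negative point is called.

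In luminal cells the mutants differed from controls in 1 member, Wnt5a. It read 3.51, 3.88 and 3.72 in mutant Sca1-negative arrays, near the array medians, and 4.97, 5.60 and 5.17 in control ones. The mutant arrays lay more than 1 log2 unit below without overlap. Wnt5a fell by 1.55 ± 0.26 on the fitted scale (adjusted p = 0.00424, limma), where 1.90% of genes were called in either direction, and the call held under all 17 other settings. At an unadjusted p under 0.05 there were 6 members and 2235 of all genes (limma). The median difference was -0.08 over members and -0.03 over all genes. In Sca1-positive cells Wnt5a read 5.27 and 5.39 in mutants and 5.56, 4.88 and 5.81 in controls, where the mutant values fell within the control range.

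Hormone-sensing markers were also lower in mutant Sca1-negative luminal cells. Of the 5 measured on that list, 4 fell (Pgr to 4.94 from 7.59, Foxa1 to 5.52 from 7.63, Esr1 to 4.40 from 5.72 and Prom1 to 4.51 from 6.80), and list means ran from 5.46 to 5.80 beside 7.37 to 7.76. Of 7 progenitor markers Elf5 rose (8.71 from 6.48), with list means from 8.82 to 9.05 beside 8.23 to 8.67. On the fibroblast list of 9, Dcn fell (7.65 from 10.5) and the list means ran from 3.90 to 4.06 beside 4.31 to 4.40. Sox10, 1 of 2 measured Schwann markers and also a gene of mammary epithelium, rose to 6.19 from 4.90, with list means from 4.71 to 4.81 beside 4.17 to 4.32. The part of these lists in the Wnt5a difference was not tested.

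Other members differed in the Sca1-negative gate without passing the threshold. Sfrp2 read 7.02, 7.68 and 8.04 in mutants, all above the control arrays (5.32 to 6.22), with a difference of 1.70 ± 0.61 (adjusted p = 0.244, limma). Sfrp1 read 4.66, 4.55 and 4.92, also above the control arrays (3.87 to 4.35), with a difference of 0.62 (adjusted p = 0.228, limma). Wnt7b read 4.40, 4.61 and 4.55, below the control arrays (4.70 to 5.38), with a difference of -0.59 (adjusted p = 0.208, limma). For these 3 genes no mutant array overlapped with a control array, as was the case for 17 of 41 members and 22.6% of all genes. Wnt5b overlapped between genotypes in this gate, at 6.73, 6.45 and 7.19 in mutants and 6.40 to 6.99 in controls.

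The other members called elsewhere were not called between mutant and control Sca1-negative cells. Fzd7 read 6.0, 6.19 and 5.95, Fzd6 5.93, 6.13 and 5.72 (controls 5.81, 5.64 and 6.65), and Fzd1 5.42, 4.86 and 5.48. Fzd3 read 4.29, 3.90 and 4.19 and Fzd2 3.64, 3.71 and 3.48. The ligand Wnt10a read 4.15, 4.32 and 4.48, Wnt6 4.14, 4.30 and 4.09, and Dkk3 3.81, 4.00 and 3.95. Of these, Fzd3 lay just above all control arrays, Fzd2 and Dkk3 lay just below them, and the others overlapped.

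Between mutant and control Sca1-positive luminal cells 0 members were called, where 0.226% of genes were. With 2 mutant arrays, 3 members had an unadjusted p under 0.05 (limma), as did 1786 genes, and the smallest adjusted p was 0.202 (limma). The median was -0.11 over members and -0.05 over all genes. Sfrp2 read 5.25 and 6.12 in mutants, above the control arrays (4.11 to 4.79), and was 1.29 higher without a call. Sfrp1 at 3.90 and 4.00, Fzd7 at 4.98 and 5.55 and Wnt7b at 5.35 and 5.45 overlapped with the control arrays. Fzd6 read 6.17 and 5.84, beside 6.29, 5.71 and 6.23 in controls. Wnt5b read 5.10 and 4.74, Wnt10a 4.23 and 4.26, Wnt6 4.06 and 4.05, Fzd1 4.56 and 4.55, Fzd2 3.52 and 3.49, Fzd3 4.07 and 3.90, and Dkk3 4.19 and 3.95.

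Whether the mutant difference itself differed between gates was tested with interactions, which share the basal arrays. Between the basal gate (GFP-positive cells) and the Sca1-negative luminal gate, 2 members passed, where 1.55% of genes did. The Sfrp1 difference was 2.41 ± 0.30 larger in basal cells (adjusted p = 0.000394, limma) and the Fzd7 difference 1.97 ± 0.39 lower (adjusted p = 0.017, limma). Between the basal and the Sca1-positive luminal gate Sfrp1 alone passed, by 3.09 ± 0.32 (adjusted p = 9.96e-05, limma), where 1.09% of genes did. There Fzd7 had -1.70 (adjusted p = 0.0715, limma). Sfrp2 passed neither test (2.21, adjusted p = 0.328, and 2.61, adjusted p = 0.272, limma), so its larger difference in basal cells was not told apart from those in the luminal gates. For Wnt5a the fall in Sca1-negative cells differed from the basal gate by 1.40 (adjusted p = 0.0825, limma) and from the Sca1-positive gate by 1.46 (adjusted p = 0.248, limma), and neither was called. Between the luminal gates 0 members passed, where 0.140% of genes did, with 3 members and 1129 of all genes at an unadjusted p under 0.05 (limma).

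**Figure D4:**
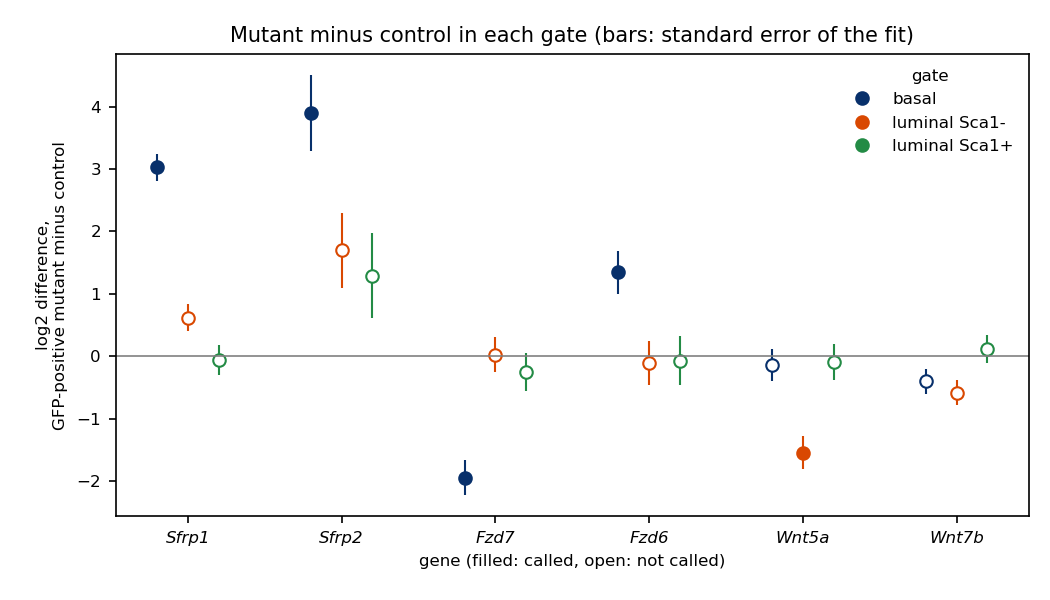
Mutant minus control log2 difference of 6 members in the basal gate (GFP-positive cells), the Sca1-negative and the Sca1-positive luminal gate, with standard errors of the fit. Filled points are called. Sfrp1 is at 3.03 in the basal gate and 0.62 in the Sca1-negative gate, Sfrp2 lies above 0 in all 3 gates, and Wnt5a is called only in the Sca1-negative luminal gate (-1.55).

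The wider pathway was followed with 53 further genes, of which 50 were measured: genes for Wnt secretion and processing, co-receptors, R-spondin receptors, other secreted inhibitors, the cytoplasmic and nuclear relay and feedback targets. This list was written with earlier results of these data known, so its counts beside the shares of all genes do not test the pathway. In control basal cells 13 were higher and 3 lower than in Sca1-negative luminal cells, where 4.67% and 5.22% of all genes were. Against Sca1-positive luminal cells 16 were higher and 2 lower, where 5.94% and 6.32% of all genes were. Medians over the 50 were 0.32 and 0.34, beside 0.01 and -0.01 over all genes. Lgr5, a receptor for R-spondins, read 8.35, 8.22 and 8.61 in control basal arrays and at most 3.67 on any control luminal array, below the array medians, a fitted difference of 4.82 ± 0.27 from Sca1-negative (adjusted p = 6.74e-09, limma) and 4.89 ± 0.27 from Sca1-positive cells. Lgr4, a related receptor, was 3.57 ± 0.36 above Sca1-positive cells (adjusted p = 3.67e-06, limma). Wif1, a secreted protein that binds Wnts, was 3.28 ± 0.33 above Sca1-negative cells (adjusted p = 4.99e-06, limma). In the other direction Dkkl1, a Dickkopf-like gene that the symbol rule does not cover, was 3.15 ± 0.30 lower in basal than in Sca1-negative cells (adjusted p = 2.34e-06, limma). Apc, a scaffold of the complex that degrades beta-catenin, was 1.46 ± 0.29 lower (adjusted p = 0.00311, limma).

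In GFP-positive basal cells 5 of the 50 pathway genes rose and 5 fell against control basal cells, where 2.32% and 1.91% of all genes did. Since the list was written with earlier results known, these counts describe its genes and do not test the pathway. The median was -0.14, beside -0.03 over all genes. Lgr5 read 4.60, 4.05 and 5.55, beside 8.74, 8.40 and 9.16 in GFP-negative basal cells. It fell by 3.66 ± 0.27 against control (12.6-fold, adjusted p = 5.69e-07, limma) and by 4.03 ± 0.27 against GFP-negative cells (adjusted p = 2.1e-07, limma), and all GFP-positive arrays lay far below the others. Wif1 read 4.02, 4.70 and 4.90 and fell by 2.24 ± 0.33 from control arrays at 6.65 to 6.89 (adjusted p = 0.000728, limma). GFP-negative replicate 2, an array that stood apart, overlapped with the GFP-positive arrays at 4.56, while replicates 1 and 3 read 6.20 and 6.35.

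Among the genes that rose, Trabd2b, which encodes a membrane protease that cleaves Wnt ligands, read 7.77, 6.82 and 7.27 in GFP-positive cells. Control basal arrays read 4.02, 4.24 and 4.59 and GFP-negative ones 4.55, 5.08 and 5.22, all lower without overlap. The rise was 3.00 ± 0.24 against control (8.02-fold, adjusted p = 1.18e-06, limma) and 2.34 ± 0.24 against GFP-negative cells (adjusted p = 1.93e-05, limma). Sostdc1, a secreted antagonist of Wnt and BMP signals, read 8.38, 8.21 and 9.27, above the control (4.97, 6.88 and 4.65) and GFP-negative arrays (6.92, 4.98 and 5.13). It rose by 3.12 ± 0.51 against control (adjusted p = 0.00178, limma) and 2.94 ± 0.51 against GFP-negative cells (adjusted p = 0.00331, limma). Neither Sostdc1 call held with only the groups compared in the fit (adjusted p = 0.087 and 0.127, limma).

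The secreted inhibitors outside the symbol rule did not move one way against control: of 9 measured, 3 rose (Frzb, Sostdc1 and Igfbp4), 2 fell (Wif1 and Apcdd1) and 4 were not called, with a list median of -0.08. Mean Frzb levels were 3.55 in GFP-positive and 3.08 in control basal cells, each below the array medians, so its level may not be above background. Of the 5 R-spondin receptors and receptor-degrading ligases, Lgr5 and Lgr6 fell. Of 12 feedback targets, Lgr5 and Myc fell and 10 were not called. Against GFP-negative basal cells 6 pathway genes rose and 3 fell, where 2.05% and 1.2% of all genes did. The 3 that fell were the feedback targets Lgr5, Axin2 and Nkd1. The Nkd1 difference of -1.16 (adjusted p = 0.0469, limma) was lost under 11 of 17 other settings, including each fit without 1 of GFP-positive replicates 1, 2 and 3 (-1.20, -1.12 and -1.15) or of GFP-negative replicates 1 and 3 (-0.92 and -1.14). No pathway gene was called between mutant and control cells in either luminal gate, between GFP-negative and control basal cells or between the control luminal groups. The shares of all genes called there were also low. They were 1.9% (Sca1-negative gate), 0.226% (Sca1-positive gate), 0.161% (GFP-negative basal cells) and 0.762% (control luminal groups). With such shares, 0 calls among 50 genes say little about the pathway.

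**Figure D5:**
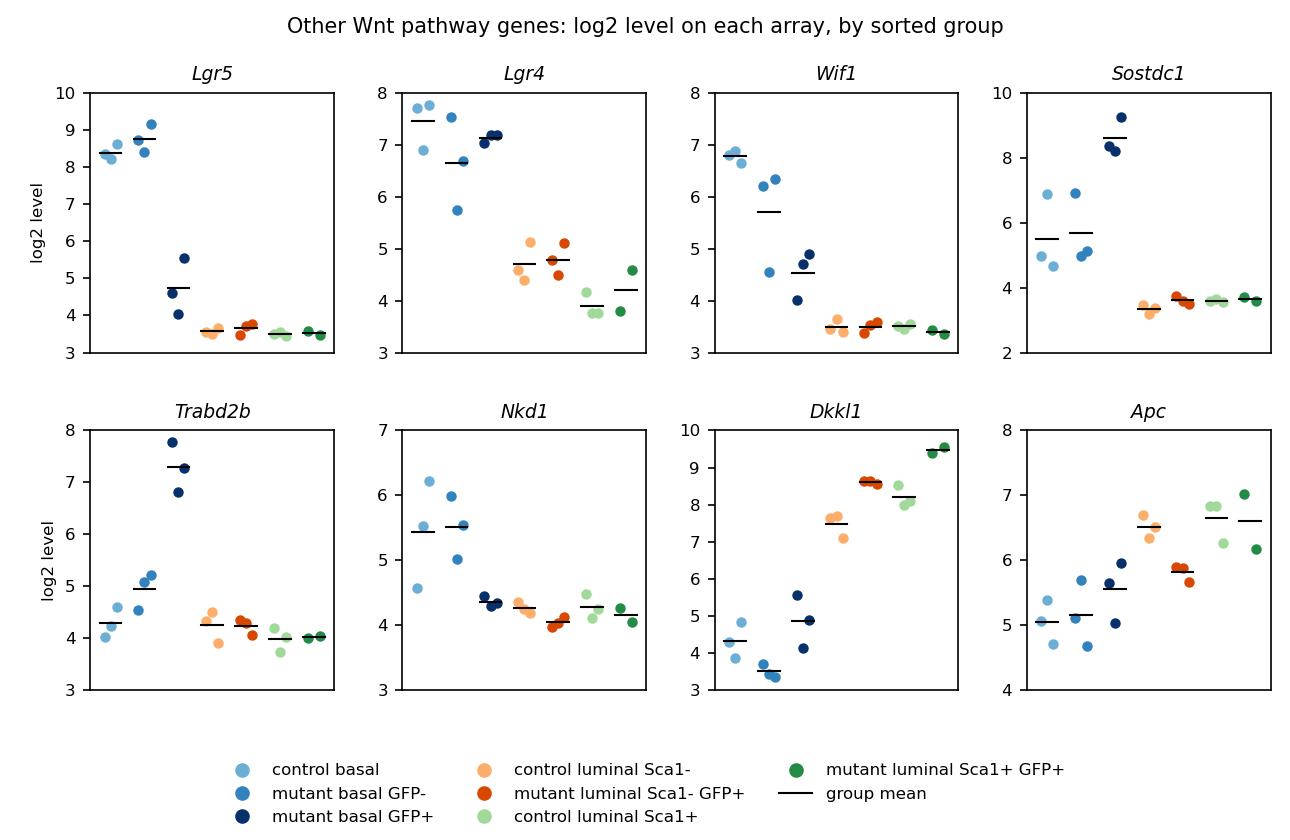
Log2 level of 8 other Wnt pathway genes on each of the 20 arrays (points), with the group mean as a bar, in 1 panel per gene with its own axis range. Lgr5 is above 8 on all control and GFP-negative basal arrays and between 4.05 and 5.55 on the GFP-positive ones, while Trabd2b is above 6 on the GFP-positive basal arrays alone.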

How the data were processed

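Gene expression was measured on 20 Affymetrix arrays of sorted mouse mammary cells. The authors deposited log2 probe set values with 1 column per array (from 1.98 to 13.07). Per the submitters' processing notes the affy package was used, without a stated version. Its role, the normalization and the filters are not given in the sources used here. Of 34760 probe sets, 21640 carried 1 gene symbol in the platform annotation, 1321 several and 11799 were not listed there. Those with 1 symbol were used (21553 matched to RefSeq by gene number, 0 symbols changed), and the highest mean over arrays was kept for 954 genes with several. The deposited log2 values were tested without further normalization or filter in limma 3.58.1 (R 4.3.3, lmFit and eBayes), with 7 group means and 11 contrasts. The code was tested on simulated data.

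The members and gene lists were chosen with earlier results of these data known. Members called at an adjusted p under 0.05 in any contrast are given on every array and the others as ranges. Of the other pathway genes, at most 2 called genes per direction and comparison, those with the largest differences, are given with values. The labels do not say what the replicate numbers mark. Over 57 same-numbered pairs, deviations from group means correlated between -0.05 and 0.22, not above 0.1 in every pair, so arrays were not treated as paired. Alternatives were quantile normalization, median centring, a filter on low values, array weights, a trended robust fit, replicate blocks, other probe set choices, fits of only the groups compared and leaving out each array, and, added after seeing the data, the 3 arrays that stood apart together.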

Additional observations from a re-analysis of the deposited data

Results flagged for a closer look

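Listed are members, and pathway genes given with values above, whose mutant minus control difference itself differed between gates (interaction, limma, adjusted p under 0.05). For Sfrp1 the basal difference (GFP-positive cells) exceeded the Sca1-negative luminal one by 2.41 ± 0.30 (adjusted p = 0.000394, limma) and the Sca1-positive luminal one by 3.09 ± 0.32 (adjusted p = 9.96e-05, limma). The Fzd7 interaction with the Sca1-negative gate was -1.97 (adjusted p = 0.017, limma). Of the 50 other pathway genes, 5 were called with the Sca1-negative gate, where 1.55% of all genes were. With the Sca1-positive gate 2 were called, where 1.09% of all genes were. The 5 include Lgr6 (negative) and Igfbp4 (positive), which are not given with values. The Trabd2b interaction was 3.03 with the Sca1-negative gate (adjusted p = 0.000138, limma) and 2.97 with the Sca1-positive gate (adjusted p = 0.000365, limma). For Lgr5 these were -3.74 (adjusted p = 6.27e-05, limma) and -3.68 (adjusted p = 0.000154, limma). The Wif1 interaction with the Sca1-negative gate was -2.25 (adjusted p = 0.0225, limma). It missed the threshold when any 1 of 6 arrays was left out, with adjusted p from 0.0507 to 0.0581 (limma): control basal replicate 2, control Sca1-negative replicates 1 and 3, GFP-positive basal replicate 1, and mutant Sca1-negative replicates 2 and 3.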

How the results depend on the processing

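Of the 30 calls of members, 23 held under every alternative run and 7 were lost under at least 1, and 0 changed direction. Counts of called members stayed within 1.5 times in 194 of 202 comparisons with an alternative. With array weights the count was 3 in place of 1 for mutant against control Sca1-negative luminal cells. With only the groups compared it was 1 in place of 4 for GFP-positive against GFP-negative basal cells. For the interaction of basal and Sca1-positive luminal cells it was 2 in place of 1 with a filter on low values, with array weights and without the 3 arrays that stood apart. The cause of these shifts was not tested. Leaving out 1 array gave from 8 to 9 and from 7 to 11 members for control basal against Sca1-negative and Sca1-positive luminal cells, 1 between the control luminal groups, 1 to 2 and 0 for the mutants in these gates, 3 to 4 for GFP-positive and 0 for GFP-negative against control basal cells, and 2 to 4 between those fractions. For the interactions it gave 2 to 3 (Sca1-negative gate), 1 to 2 (Sca1-positive gate) and 0 (between luminal gates). Over all genes, fitting only the groups compared lowered the calls from 843 to 276 for GFP-positive against control basal cells and from 648 to 134 against GFP-negative cells, and array weights raised those for Sca1-negative luminal cells from 378 to 819. Other sets of calls moved as well, from 32 to between 0 and 63 for GFP-negative basal cells, from 45 to between 12 and 75 for Sca1-positive luminal mutants, from 152 to between 43 and 231 between control luminal groups, and from 28 to between 20 and 72 and from 218 to between 117 and 275 for the interactions of the luminal gates and of the basal with the Sca1-positive gate. With the replicate number as a fixed replicate block, 3 in place of 4 members were called between GFP-positive and control basal cells (Fzd6 was lost, adjusted p = 0.0639, limma). The block ended no other call of a member. Every array correlated best with its own number in 2 of 8 comparisons, which is a hint from the data and not from the design. A random block for possible shared pools had a correlation of 0.013. Low signal limits the 14 members near the array medians.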
